A study of Drosophila melanogaster with 15 samples.

Results

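Nanopore cDNA assemblies of heads, embryos and ovaries of *Drosophila melanogaster* held 108581 transcript models, of which 8305 carried a gene ID that did not begin with FBgn, the prefix of FlyBase genes. These models without an FBgn ID were all taken, and they numbered 5659 of 74482 models in heads (7.6%, 95% Wilson interval 7.41 to 7.79), 2063 of 20701 in embryos (9.97%, 9.57 to 10.4) and 583 of 13398 in ovaries (4.35%, 4.02 to 4.71). In all of them the ID was the chromosome with the model's start rounded down to 1000 nt, so it gave a place and no gene.

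All libraries came from untreated w1118 flies, a laboratory strain that carries a mutant allele of the eye colour gene *white* and is labelled wild type here. Heads were from 3-day-old adults (6 libraries, 4 of them size selected for cDNA above 3 kb and 2 not), embryos were aged 14 to 16 h or 18 to 20 h after egg laying (3 libraries each, 50 embryos a library), and ovaries were dissected from 3-day-old virgin females (3 libraries, 20 ovaries a library). Polyadenylated RNA was reverse transcribed and amplified by PCR, and the libraries of each tissue were merged before assembly. Each tissue is therefore 1 assembly with no replicate and no read count, so no difference between tissues was tested, and the intervals given here cover the sampling of models only. The paper reports much deeper sequencing of neural tissue than of ovaries and embryos. How far depth sets the counts and shares that differ between assemblies was not tested.

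Most markers of the labelled tissues had FBgn models. All 7 photoreceptor genes, such as the opsin gene *ninaE*, had 7 to 99 models each in heads, against 1 of 7 genes in embryos and in ovaries. All 6 eggshell and yolk genes had a model in ovaries, 0 in embryos and 2 in heads, and 0 of 5 neuronal markers had one in ovaries. All 5 neuronal, 4 of 5 muscle and all 5 cuticle and tracheal markers had models in embryos. In heads all 5 markers of each of these lists had models too. Cuticle and tracheal markers had 4 to 35 each in heads and 3 to 20 each in embryos, so these lists did not separate embryos from heads. Markers of other tissues had models too. All 4 testis markers had 2 to 38 models each in heads, and all 4 fat body markers had 8 to 17 each there. In ovaries 4 of 5 muscle and 4 of 4 fat body markers had a model, with at most 4 each. Of 3 annotated germline markers 2 had one in ovaries.

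A fly gene is read from a promoter in which initiation often falls on a short element, the initiator, whose core is commonly written TCAGT. The primary transcript is unspliced, and it becomes an mRNA when introns with GT at the 5′ end and AG at the 3′ end are removed and the 3′ end is cut downstream of a signal such as AATAAA. A long read with no splice junction holds no GT or AG pair from which its strand could be read, whereas the strand of a spliced read can be read from its introns. Transcription from the opposite strand of a gene, antisense transcription, is widespread in animals, and cutting inside an intron, intronic polyadenylation, yields short transcripts that keep the first exon and part of the intron.

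The letters at the ends of these models are shown first because the results turn on which end of a model is its start. Ends are printed only where TCAGT or AATAAA was found, so the examples do not show how often either occurs. Sequences are RefSeq's, read from dm6, the build of the files, and run 5′ to 3′. At the following start sites the model was labelled as beginning there, on the strand of the annotated gene, and capitals mark TCAGT within 30 bases that reach from 10 before the labelled start of the locus's longest unspliced model to 19 after it.
*ps*, chr3R:9417932-9417961, plus strand: tccgcattTCAGTtcagttggattcagtca
*Bacc*, chr2L:2752791-2752820, plus strand: gacggcaagcTCAGTcttgtacgaaccgtc
*Svil*, chr3L:2378792-2378821, plus strand: ctggccatTCAGTtctgctttggttgtgtt
*pum*, chr3R:9157945-9157974, minus strand: atacgaaaTCAGTtcgcgatggaactttga
*Tlk*, chrX:3749052-3749081, plus strand: tttcggttTCAGTcgcaattcaaacgccat

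At the next sites the model was labelled as ending there, on the strand opposite to the gene named. At *Pdcd4* an annotated antisense gene, *asRNA:CR43833*, lay on the labelled strand. Each site is given as labelled, with capitals on ACTGA, and then on the other strand, where the same 5 base pairs read TCAGT.
*CycG* as labelled, chr3R:31610959-31610988, plus strand: aaatcttcgagaACTGAccaaactaggtgt
*CycG* on the other strand: acacctagtttggTCAGTtctcgaagattt
*Pdcd4* as labelled, chrX:13755378-13755407, plus strand: cgtgaaaactcaactcgACTGAaccagaga
*Pdcd4* on the other strand: tctctggtTCAGTcgagttgagttttcacg
*mtd* as labelled, chr3R:5323828-5323857, plus strand: aatggaaaacttaaACTGAtcgaatcgatc
*mtd* on the other strand: gatcgattcgaTCAGTttaagttttccatt

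The opposite ends gave the same kind of pair. A forward model of *Atg17*, an autophagy gene, ended just after AATAAA, and a model at *CG40228* was labelled as starting at TTTATT, which reads AATAAA on the strand of the gene.
*Atg17*, chr3R:5670347-5670376, plus strand: AATAAAaacaatcacataaacacatttgaa
*CG40228* as labelled, chr3L:27083327-27083356, plus strand: ttttaataagtcaaaaatgTTTATTtcaat
*CG40228* on the other strand: attgaAATAAAcatttttgacttattaaaa

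Inside the intervals of the models lay 5′ splice sites that other transcripts of the same gene use. They lay on the labelled strand of forward models and on the strand opposite to the label of reverse models. An RNA of the labelled strand of a reverse model would not hold such a site. Capitals mark the first 6 bases of the annotated intron. Of the 7 loci shown for their starts that had such a site read out, these 3 began with GTAAGT, the letters most often given for such a site, while *ps* had GTGAGT there, *Bacc* had GTGGTT, *Tlk* had GTAACG and *Pdcd4* had GTGAAT.
*Svil*, chr3L:2379434-2379463, plus strand: cgctataagtGTAAGTgcaagtcaaccacc
*pum*, chr3R:9157098-9157127, minus strand: ggagcatattGTAAGTgcctcggaacccag
*CycG*, chr3R:31610861-31610890, minus strand, opposite to the model's label: aggcatccggGTAAGTgccatgagatttgt

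Models without an FBgn ID were nearly all unspliced. A single exon made up 5350 of 5659 in heads (94.5%, 93.9 to 95.1), 2035 of 2063 in embryos (98.6%, 98.1 to 99.1) and 559 of 583 in ovaries (95.9%, 94.0 to 97.2), while among FBgn models of the same files the shares were 2.5%, 2.1% and 4.66%. None of the 3 assemblies held a model without an FBgn ID with 4 or more exons, against 75.8%, 76.3% and 67.9% of FBgn models. They were also long for unspliced models. In heads the median of single-exon models without an FBgn ID was 3216 nt, in embryos 4347 nt and in ovaries 2322 nt, whereas single-exon FBgn models had medians of 1146, 1519 and 1405 nt. Over all exon numbers the medians were 3053, 4340 and 2276 nt, near the 3642, 4050 and 2618 nt of FBgn models, in libraries of which most were selected for length.

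**Figure D1:**
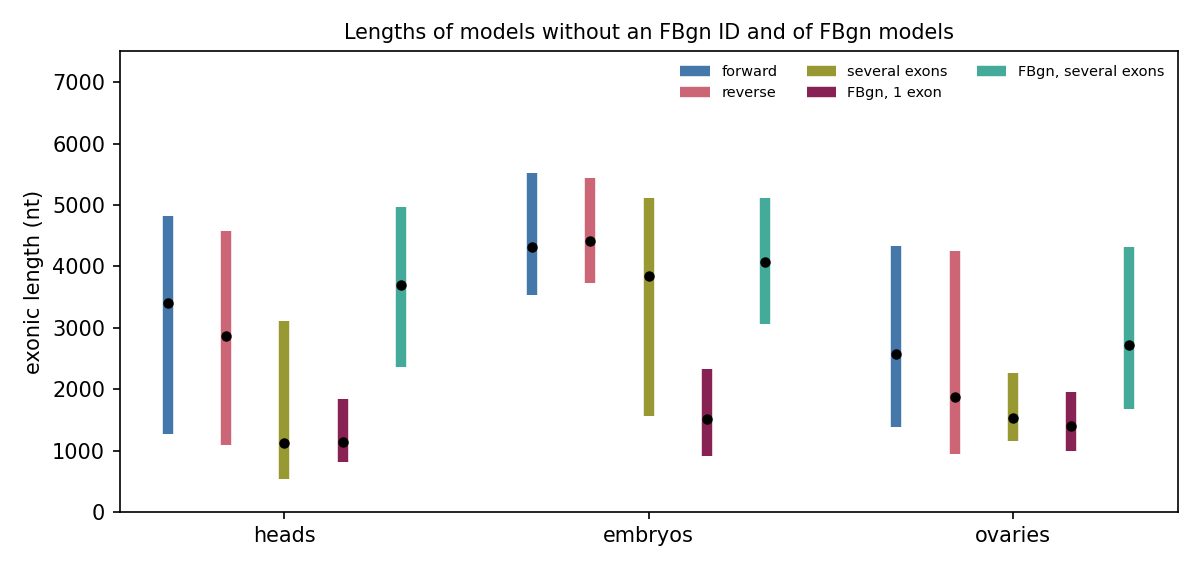
Exonic length in nt (vertical axis) by assembly. Bars span the quartiles and dots mark medians for unspliced models labelled forward or reverse along their host gene and for spliced models, all without an FBgn ID, beside FBgn models with 1 or several exons. Unspliced models without an ID lay above FBgn models of 1 exon in each assembly, with medians of 3402 and 2859 nt against 1146 nt in heads.

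None of the models lay outside annotated genes. Against the Ensembl annotation, 70.3% of models in heads, 69.4% in embryos and 69.3% in ovaries overlapped an exon on their own strand, and 29.7%, 30.6% and 30.7% overlapped an exon on the opposite strand only, which is the position of an antisense transcript. Against FBgn models of the same file the antisense shares were 30.2% (29.1 to 31.4), 33.8% (31.8 to 35.9) and 31.6% (27.9 to 35.4), and 1.06%, 4.99% and 7.03% met no FBgn model. These shares depended on how much overlap was asked for, and where 50% of the exonic length had to overlap they were 24.3%, 10.8% and 16.5%. Under either reference 0 of 309 spliced models in heads, 0 of 28 in embryos and 0 of 24 in ovaries fell in this class, so it was made of unspliced models. Against the annotation this follows from their introns, whose splice sites are all annotated on the labelled strand, so an annotated exon lay there too. It therefore says nothing about antisense transcription of spliced RNA.

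The strand column leaned to plus. Plus was the label of 68.8% of models without an FBgn ID in heads (67.6 to 70.0), 63.5% in embryos (61.5 to 65.6) and 61.7% in ovaries (57.7 to 65.6), against 51.8%, 50.7% and 50.5% of FBgn models.

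The assembly had kept reads with an end at a promoter of a promoter database, so an end at a start site is what that step selected and no finding. The methods describe that step for 5′ ends and do not say whether it looked at strand. A model was called forward where its labelled 5′ end was no more than 50 nt from an annotated 5′ end on its own strand, and reverse where its labelled 3′ end was as near to an annotated 5′ end on the opposite strand, and the gene that owned that start was taken as the host. In heads 3134 single-exon models were forward (58.6%, 57.3 to 59.9) and 2025 reverse (37.9%, 36.6 to 39.2). In embryos 1252 were forward (61.5%) and 728 reverse (35.8%), and in ovaries 316 were forward (56.5%) and 221 reverse (39.5%). Models that were both or neither made up the rest, and those that were neither numbered 165, 46 and 17.

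The fit to the start sites was exact for most. The labelled 5′ end of forward models was within 1 nt of the annotated one in 72.5%, 82.7% and 81.3% of models in heads, embryos and ovaries, and the labelled 3′ end of reverse models was within 1 nt of the opposite-strand start in 75.9%, 83.2% and 76.9%. Within the antisense class against the annotation, the labelled 3′ end lay at an opposite-strand start in 97.2%, 97.6% and 97.8% of models, and the labelled 5′ end lay at a start on its own strand in 0 of 1680, 0 of 632 and 0 of 179, which follows from the class, since a start on its own strand would mostly put an exon there too. Unspliced models that overlapped an annotated exon on their own strand also had a labelled 3′ end at an opposite-strand start in 11.4%, 8.55% and 13.4%. Spliced FBgn models had a labelled 3′ end at an opposite-strand start in 0.256%, 0.274% and 0.287%.

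Whether a model was forward or reverse went with the strand of its host. Where the host lay on the plus strand, 18.6% of forward and reverse models in heads were reverse (17.2 to 20.2), 22.1% in embryos and 27.2% in ovaries. Where the host lay on the minus strand, 59.1% were reverse in heads (57.2 to 61.0), 50.5% in embryos and 53.7% in ovaries. The intervals of the plus and minus hosts did not overlap in any of the 3 assemblies, but they count each model as independent. Models of 1 start position carried the same label within an assembly, so these intervals are too narrow.

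**Figure D2:**
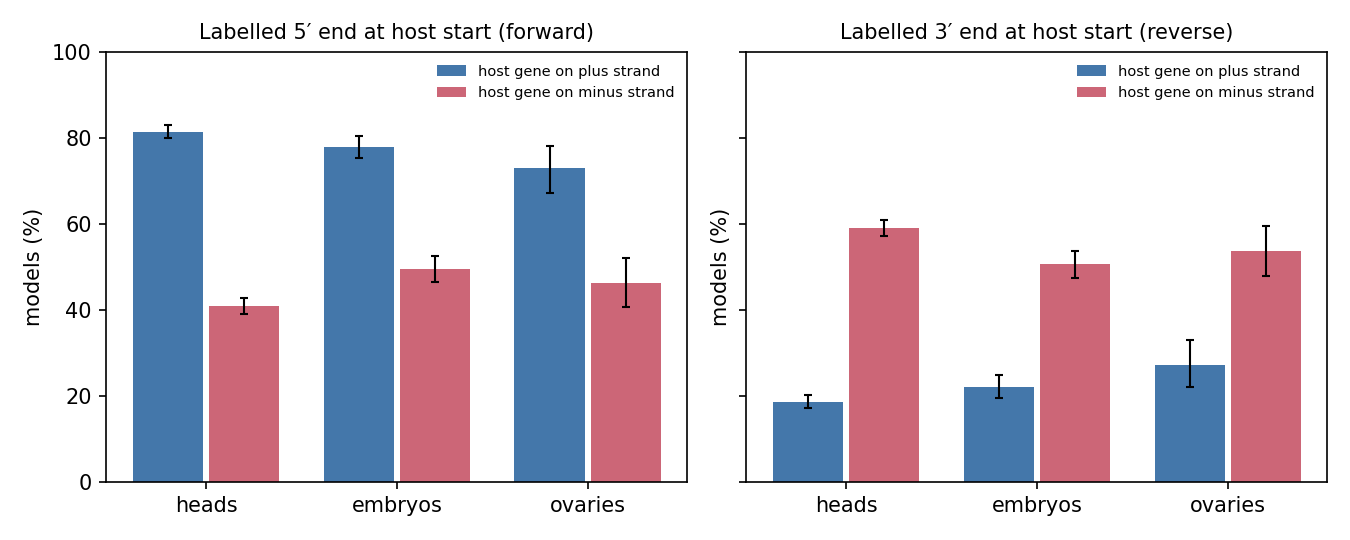
Share of forward (left) and reverse (right) models in percent among unspliced models without an FBgn ID, by strand of the host gene. Bars are shares of models in each assembly and lines their 95% Wilson intervals, which count each model as independent. Reverse models were 59.1% of those on minus-strand hosts and 18.6% of those on plus-strand hosts in heads.

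Single-exon FBgn models, the most similar models with an ID, showed the same mixture. Their label was opposite to the strand of the gene they were assigned to in 886 of 1714 in heads (51.7%, 49.3 to 54.1), 126 of 388 in embryos (32.5%, 28.0 to 37.3) and 243 of 596 in ovaries (40.8%, 36.9 to 44.8), while 0 of 66668, 0 of 18083 and 0 of 12125 spliced FBgn models were on the opposite strand. The models without an ID differed from them in exon content, with part of the models alike. All single-exon FBgn models whose gene is annotated had at least 50% of their length in exons of that gene, with medians of 99.4%, 99.8% and 99.8%. Forward models without an ID had medians of 38.3%, 19.4% and 41.5%, and reverse models 50.4%, 19% and 50.7%. At least 50% of the length lay in host exons for 42.95%, 18.1% and 42.1% of forward models. The shares of reverse models were 50.3%, 17.9% and 50.2%. The sources used here do not say how IDs were assigned, so this difference and the assignment cannot be told apart.

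Forward and reverse were defined by annotated starts, so the letters at that end are those of annotated promoters and are given as a description. The letters at the far end were not used in the definition. They are in part those of annotated 3′ ends. Within 150 nt of an annotated 3′ end on the host strand lay 28.8%, 12.2% and 23.1% of forward far ends in heads, embryos and ovaries. Of reverse far ends 40.4%, 15.2% and 28.1% lay as near. Counted over distinct ends, TCAGT lay between 5 bases before and 10 after the labelled 5′ end of 27.1% of forward models in heads, 33.7% in embryos and 20.2% in ovaries. At the labelled 5′ end of reverse models it was at 1.51%, 0.414% and 0.913%, and on the other strand, at the labelled 3′ end, at 23.8%, 33.3% and 15.4%. Among all 23136 distinct annotated 5′ ends 10.4% held it, and the letters of those windows read on the other strand held it in 0.912%. FBgn models held it at 13.4%, 17.7% and 10% of distinct 5′ ends.

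The 50 nt of a model next to the end away from the host start were read on both strands, for the AATAAA of mRNA 3′ ends. On the strand of the host it lay there in 29.3%, 17.0% and 25.6% of forward far ends in heads, embryos and ovaries, where the host strand is the label, and in 34.9%, 18.6% and 30.6% of reverse far ends, where it is opposite to the label. On the other strand the same 50 nt held it in 4.97%, 4.71% and 4.75% of forward far ends, and in 5.3%, 3.87% and 2.74% of reverse far ends, where that strand is the label. The intervals of the host and the other strand did not overlap in any assembly for forward or for reverse models. FBgn 3′ ends held it at 33.5%, 40.2% and 42.7%, and all 22231 distinct annotated 3′ ends at 44.1%, against 7.27% for the same annotated windows read on the other strand. Genomic A runs downstream, which can prime reverse transcription inside an RNA (12 or more A in the next 20 nt), followed 6.64%, 9.74% and 9.49% of forward 3′ ends and 6.24%, 8.26% and 6.27% of FBgn 3′ ends. A letter match is a description and does not show that a site is used.

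**Figure D3:**
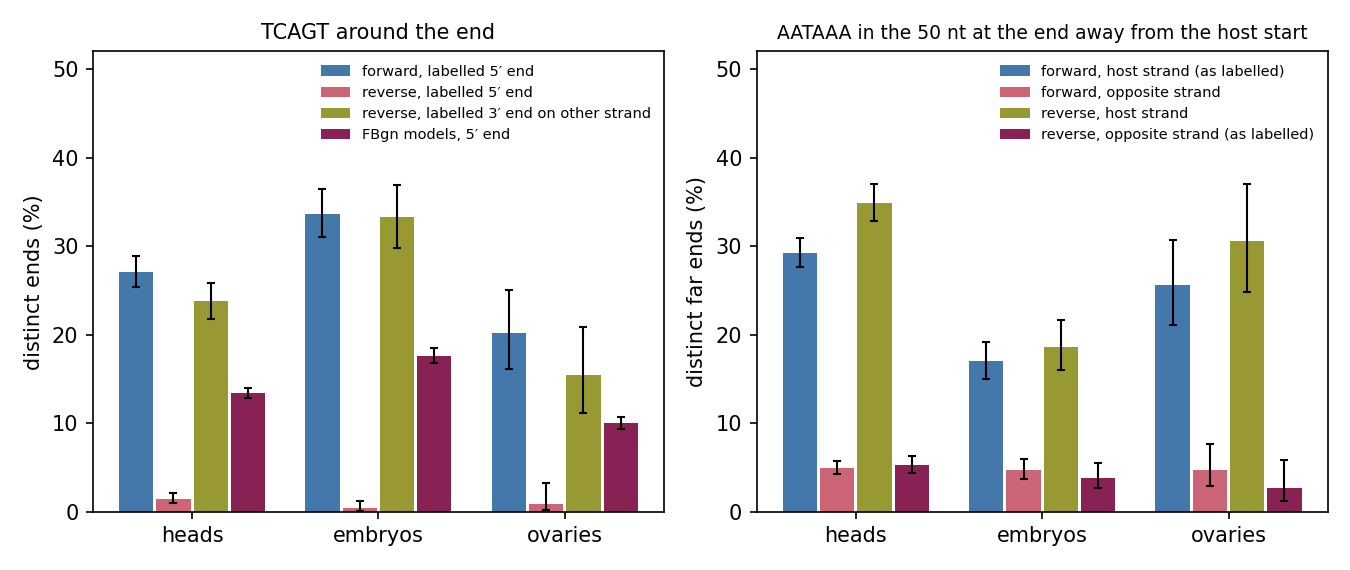
Left, percent of distinct ends with TCAGT from 5 bases before to 10 after the end, for forward and reverse models at the labelled 5′ end, reverse models at the labelled 3′ end on the other strand, and FBgn models. Right, percent of distinct ends away from the host start with AATAAA in the 50 nt of the model next to it, read on the host strand and on the opposite strand, with 95% Wilson intervals in both panels. In heads the far ends of reverse models held AATAAA in 34.9% on the host strand and in 5.3% on the labelled strand.

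Within an assembly all models of a start position had the same label. Of 4057 start positions with a forward or reverse model in heads, 715 had 2 or more models, and in all 715 the models were labelled the same way, 475 all forward and 240 all reverse. The same held at 92 of 92 start positions in embryos and 13 of 13 in ovaries. Between assemblies it did not hold. Of the start positions shared by heads and embryos, 741 of 1228 (60.3%, 57.6 to 63.0) carried the same label in both, as did 216 of 354 (61.0%, 55.8 to 66.0) shared by heads and ovaries and 134 of 227 (59.0%, 52.5 to 65.2) shared by embryos and ovaries. Positions forward in heads were forward in embryos in 527 of 776 (67.9%), and those reverse in heads were reverse in embryos in 214 of 452 (47.4%). With ovaries these shares were 65.2% and 55.1%, and from embryos to ovaries 67.2% and 46.7%. Forward was the commoner label, which alone gives some agreement, and a chance level was not computed.

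Named loci show the change of label. *elav*, an RNA-binding protein gene that marks neurons, is on the minus strand. In heads it had a reverse model of 5606 nt (chrX:517621-523226, plus) and in embryos a forward model of 5604 nt (chrX:517623-523226, minus). *CG46467*, an uncharacterised gene with no FBgn model of its own ID in any of the 3 files, had a model of 5266 nt over the same bases, chr3R:9874681-9879946, labelled plus in embryos and minus in heads. On the minus strand the annotated noncoding gene *lncRNA:CR45029* lay under it. *CycG*, a cyclin gene, had reverse models of 4958 nt in heads and embryos and a forward model of 4943 nt in ovaries. *Bsg*, which encodes the membrane protein basigin, had models of 6005 nt in embryos and 6014 nt in ovaries that were forward and 1 of 6011 nt in heads that was reverse. Each pair shared its end at the host start to within a few bases, and the labels differed.

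Forward and reverse models shared a plan, in which 1 end lay at the host start and the other most often inside the host. It lay beyond the annotated host in 13.4%, 8.71% and 13.6% of forward and 27.4%, 10.7% and 18.1% of reverse models. The end away from the start lay in an intron of the host for 46.1% of forward models in heads, 66.6% in embryos and 52.5% in ovaries, and for 38.6%, 65.8% and 43.9% of reverse models. At least 1 annotated 5′ splice site of the host lay inside 90.0%, 95.5% and 89.2% of forward models and 92.4%, 97.0% and 86.4% of reverse models, the latter on the strand opposite to the label. No whole host intron fell inside 39.1%, 45.6% and 49.4% of forward models. Models that ended in an intron were longer, with medians of 4341, 4564 and 3640 nt against 1961, 3942 and 1983 nt for the other forward models. AATAAA preceded a smaller share of those intronic ends, 17.0%, 13.6% and 14.5% against 39.8%, 23.9% and 38.0% of the other forward ends. Genomic A runs followed 8.44%, 10.2% and 12.1% of the intronic ends, against 5.15%, 8.85% and 6.67% of the other forward ends. The 95% intervals of these shares were apart in heads and overlapped in embryos and in ovaries.

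Many models took in part of the host's coding sequence only. Among forward models on coding hosts, 30.9%, 43.3% and 33.9% spanned a start codon of the host and no stop codon, and 35.6%, 19.1% and 29.4% spanned both. Among reverse models 24.0%, 38.3% and 23.4% spanned a start codon alone and 48.5%, 20.9% and 37.2% both, so that start codons alone were the larger share in embryos and the smaller in heads for both kinds. A reading frame of 100 or more codons from ATG to stop was present on the labelled strand in 50.8% of all models without an FBgn ID in heads, 58.5% in embryos and 48.4% in ovaries, against 94.5%, 95.1% and 95.1% of FBgn models. Reverse models had one in 44.9%, 57.8% and 37.6% as labelled and in 59.1%, 64.0% and 51.6% on the other strand. Forward models had one in 56.2%, 58.9% and 53.8% as labelled and in 47.7%, 55.9% and 45.9% on the other strand, so a frame of this length was common on either strand.

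The hosts were protein-coding genes for 99.3%, 99.3% and 98.8% of models. Heads had 3784 hosts, embryos 1675 and ovaries 530, and 31.6%, 23.1% and 7.07% of all genes with an FBgn model in the file were hosts. Hosts had long first introns, with a median for the longest annotated one of 1026 nt (heads), 4926 nt (embryos) and 2191 nt (ovaries), against 69, 207 and 111 nt for FBgn genes that were no host. They also had more FBgn models, with medians of 5, 3 and 2 per gene against 2, 1 and 1. With no read counts in the files, how far the number of reads of a gene moves with this was not tested. Of the hosts, 218, 166 and 57 had no FBgn model under their own ID in the file. Exons of 120, 37 and 14 of these were overlapped on the host strand by an FBgn model of another ID. Hosts were named from a later Ensembl release than the reference annotation given in the paper's methods. How far IDs that differ between the releases set these counts, *CG46467* included, was not tested.

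A locus groups overlapping models of 1 strand, so the models of a locus on 1 host mostly share a label by construction. The 5 loci with the most models in heads held 9 to 13 models each. In heads *ps*, which encodes the splicing regulator pasilla, had a locus of 13 models from 2513 to 6743 nt, all forward and 4 of them spliced, beside 259 FBgn models. *Pfrx*, the gene of a kinase that regulates glycolysis, also had 13, from 3452 to 8295 nt, beside 16 FBgn models. *CAP*, an adaptor protein gene on 2R, had 10 models in 1 locus, all reverse, and *Bacc* and *Ggamma30A*, the latter coding for the G protein gamma subunit of photoreceptors, had 9 and 10, all forward. The longest models in heads were on *tara* (10176 nt), *CG13300* (10169 nt) and *Dop2R*, a dopamine receptor gene (10061 nt), each forward and each ending in a host intron.

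In embryos the locus with the most models lay on *CycG* (6, all reverse, 2087 to 7948 nt), followed by *ftz-f1*, a nuclear receptor gene (5, all reverse), *ps* and *CG46467* (5 each, all forward) and *chinmo*, which encodes a BTB zinc-finger protein (4, all forward, 2485 to 5716 nt). The 3 longest were on *Svil* (10623 nt), a gene of the villin family of actin-binding proteins, *tara* (10322 nt) and *olf413* (10286 nt). The *tara* models of embryos and heads began at the same base. In ovaries the largest loci were *CNBP* on 2R (5 models, all reverse, 832 to 1887 nt), then *Bsg*, *lola*, *Svil* and *Pdcd4* with 3 each, and the longest models were on *CG30089* (8575 nt, reverse), *CG2841* (8269 nt) and *Lar*, a receptor tyrosine phosphatase gene (8122 nt).

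Models at 1 start often formed a ladder of ends. At *pum*, the translational repressor pumilio, 10 models left the same base (chr3R:9157964, minus) and those of heads were 270, 556, 3316, 5097 and 6065 nt long. Embryos had lengths of 551, 3302, 5097 and 6065 nt and ovaries had 556 nt alone, so 4 of the 5 ends of heads recurred. At *lncRNA:CR42549*, a noncoding gene with no FBgn model in heads or ovaries and 2 in embryos, all 10 models were reverse. The 8 of heads were 4 far ends paired with each of 2 starts. Lengths were 3524, 4835, 5177 and 6401 nt at the inner start and 3915, 5226, 5568 and 6792 nt at the outer one. All 10 models reached past the annotated gene, the longest of them into *mura*. *Su(Tpl)*, the ELL elongation factor gene, had 3 reverse models in heads, 2 in embryos and 2 in ovaries, in a locus whose other 4 models ended at the start of the neighbouring gene *Mi-2*, and of these 7 those of 3234 nt in heads and ovaries had the same bases. On their labelled strand all 7 overlapped an exon of an annotated antisense gene, *asRNA:CR43889*. *Sxl*, the splicing switch of sex determination, had 8 unspliced models in the locus, all forward, of 4068 to 8194 nt in heads, 8808 and 9309 nt in embryos and 5028 nt in ovaries.

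**Figure D4:**
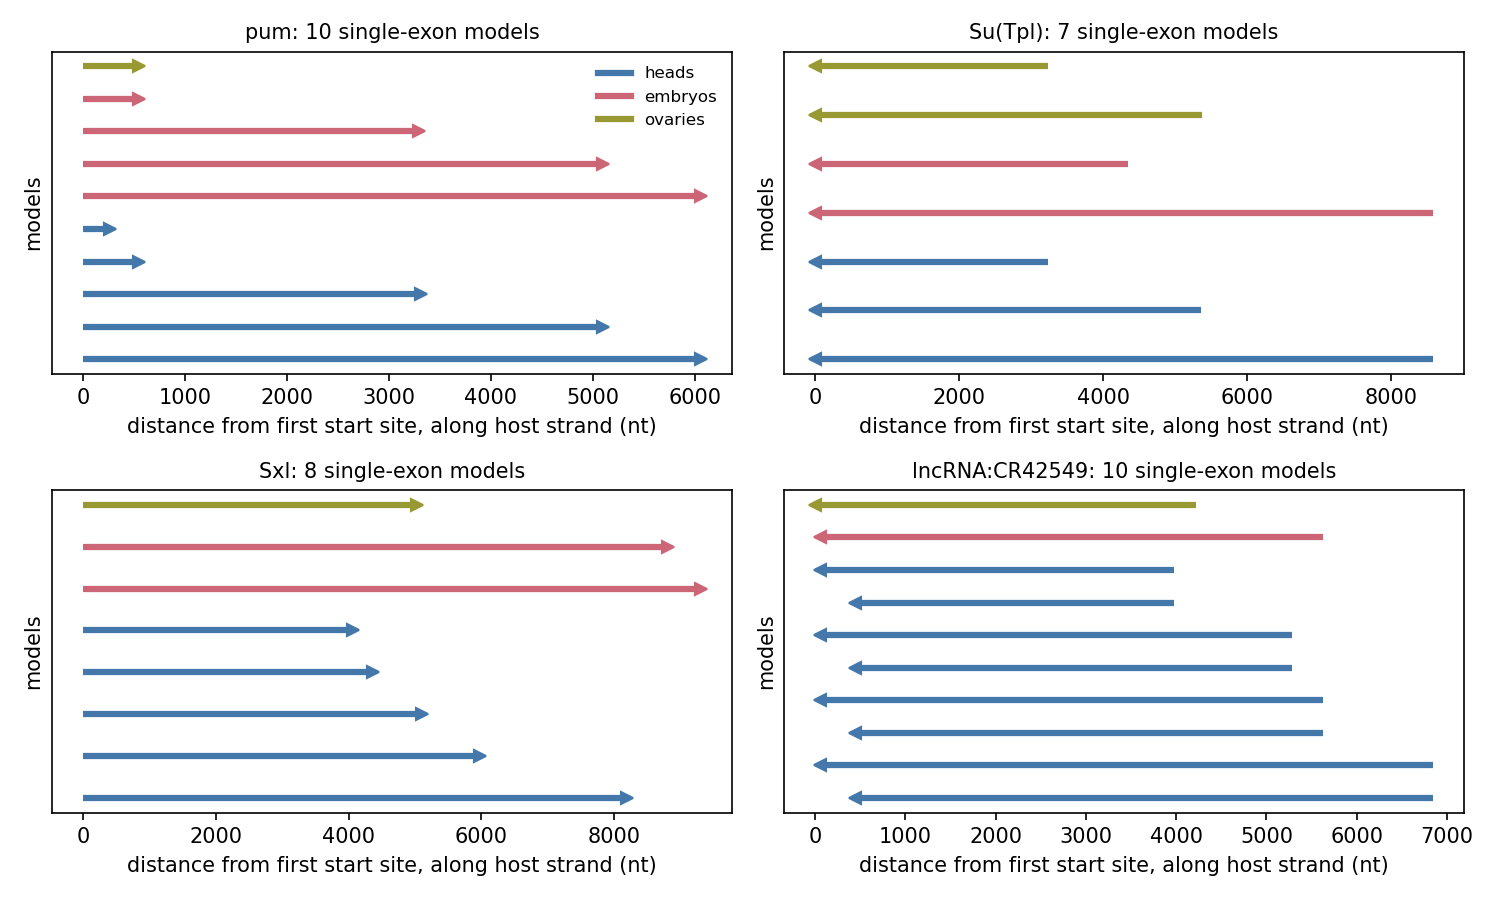
Unspliced models without an FBgn ID at 4 hosts, 1 line a model, coloured by assembly, within the largest locus of each host, on either strand. The horizontal axis is the distance in nt from the outermost start along the strand of the host, and arrowheads show the labelled direction. In these intervals models of *pum* and *Sxl* point away from the start and those of *Su(Tpl)* and *lncRNA:CR42549* toward it, and a reverse model of *pum* in embryos lies at another start outside the interval.

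Gene lists were read against the share of all 13945 annotated coding genes overlapped by such a model on either strand, which was 32.6% in heads, 14.3% in embryos and 4.62% in ovaries. Of 16 neuronal genes, 15 were overlapped in heads, 13 in embryos and 0 in ovaries. *Sh*, a voltage-gated potassium channel gene, had 5 same-strand and 5 opposite-strand models in heads and 4 same-strand ones in embryos, *cpx*, which encodes complexin of the synapse, had 7 and 3 models, and *elav* had 6 in heads, all opposite, and 1 in embryos. Of 10 muscle genes, 7 were overlapped in heads, 9 in embryos and 0 in ovaries. *Mlp84B* had 6 models in heads and 1 in embryos, all same-strand, and *Mf* had 5 and 1, all opposite-strand. *wupA*, the troponin I gene, had 4 opposite-strand models in heads, all labelled as ending at 1 base, and 1 same-strand model in embryos.

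Of 12 genes of RNA-binding or transcriptional regulators all 12 were overlapped in heads, 9 in embryos and 6 in ovaries. Of 9 annotated germline genes 3, 0 and 1 were overlapped, and of 8 Hox genes, which set segment identity, 3, 3 and 0. Among all 2780 annotated ncRNA genes 11.04% were overlapped in heads, 5.86% in embryos and 1.87% in ovaries. Of 10 listed ones 2 were overlapped in heads, 2 in embryos and 0 in ovaries. Those in heads were *lncRNA:Hsromega*, the heat-inducible noncoding gene, with 4 same-strand models, and *lncRNA:noe* with 5 opposite-strand ones, and those in embryos were *lncRNA:Hsromega* and *lncRNA:sphinx* with 1 each. The lists were short and the number of FBgn models moved with them, since *cpx* had 254 in heads and 0 in ovaries, and its part in these counts was not tested.

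The 309, 28 and 24 spliced models were a separate kind. Each of their distinct introns, 285 in heads, 29 in embryos and 24 in ovaries, joined a 5′ splice site and a 3′ splice site that are both annotated but never with each other, whereas 93.5%, 97.9% and 98.5% of introns of FBgn models are annotated as pairs. Splice sites had been corrected against short-read junctions in the assembly. GT and AG bounded 281 of 285 (98.6%, 96.5 to 99.5), 28 of 29 and 24 of 24, against 98.9%, 99.1% and 99% in FBgn models. Both sites of each intron are annotated, so these shares follow from the annotated sites and are given as a description. FBgn models of the same file used 39, 11 and 2 of these introns too.

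These introns were long, with a median of 2275 nt in heads, of 8537 nt in embryos and of 3068 nt in ovaries, against 125, 136 and 77 nt for FBgn introns. Both sites lay in 1 gene for 262 of 285 (91.9%, 88.2 to 94.6), 24 of 29 and 19 of 24, and the rest joined sites of different genes. Of the 262 within 1 gene in heads, 17 spanned no whole exon of an annotated transcript, 134 spanned 1, 49 spanned 2 and 62 spanned 3 or more. Exons touched more than 1 coding gene in 39 of 309, 6 of 28 and 7 of 24 models. The 3′ end lay within 150 nt of an annotated one in 68.0%, 25.0% and 70.8% of spliced models, against 25.6%, 11.5% and 20.8% of the unspliced ones on the same strand as an annotated exon.

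Sites of some of these introns are shown, the 5′ site with GT and then the 3′ site with AG in capitals, since each site is annotated and the pairing is what the annotation lacks.
*Ggamma30A*, intron of 33849 nt, 5′ site, chr2L:9257197-9257226, plus strand: cttgtgtctgGTgagttgacataaaagaca
*Ggamma30A*, 3′ site, chr2L:9291036-9291065: ataaaaaaatttctttacAGaatgcgctcg
*ps*, intron of 10510 nt, 5′ site, chr3R:9437109-9437138, plus strand: caaagcttctGTacgtttctcggttaagtg
*ps*, 3′ site, chr3R:9447609-9447638: atctgatgcaaatattccAGgtccgagcgg
*Svil*, intron of 24623 nt, 5′ site, chr3L:2377922-2377951, plus strand: catattacagGTaagtctattgcgaatttg
*Svil*, 3′ site, chr3L:2402535-2402564: ttctctcgtttcatttacAGactgttcaaa
*Archease*, intron of 590 nt, 5′ site, chr3R:21662790-21662819, minus strand: aagtacgagtGTgagtagttcttcgatttg
*Archease*, 3′ site, chr3R:21662210-21662239: gaatccttcccatttgacAGaatccacgga

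*Ggamma30A* had the most spliced models, 6 in heads from 876 to 4732 nt, with 2 distinct introns of 33849 and 34359 nt. *Pep* and *Pfrx* followed with 5 each, and *RpS15Aa*, a ribosomal protein gene, *l(3)80Fg* and *ps* had 4. The *Svil* intron shown was found in ovaries, where 2 spliced models of 5335 and 6924 nt left the same base. *Archease*, the gene of a cofactor of tRNA ligation, had an intron of 590 nt in embryos and in ovaries.

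Models without an FBgn ID recurred in a smaller share than FBgn models. An identical model, on the same strand and differing by no more than 10 nt at splice sites, 50 nt at the 5′ end and 150 nt at the 3′ end, was present without an FBgn ID in another assembly for 535 models of heads (9.45%, 8.72 to 10.2), 450 of embryos (21.8%, 20.1 to 23.6) and 160 of ovaries (27.4%, 24.0 to 31.2). For FBgn models the shares were 22.8%, 60.8% and 66.7%, and for single-exon FBgn models 19.2%, 50.4% and 51.3%. The other assemblies differ in size, which limits how many models of a large assembly can recur. The same interval on the opposite strand was present for a further 312 (5.51%), 264 (12.8%) and 107 (18.4%) models, some of which also recurred on the same strand. An FBgn model identical to a model without an ID was rare, with at most 4 models of heads matching 1 in ovaries and 3 in embryos.

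**Figure D5:**
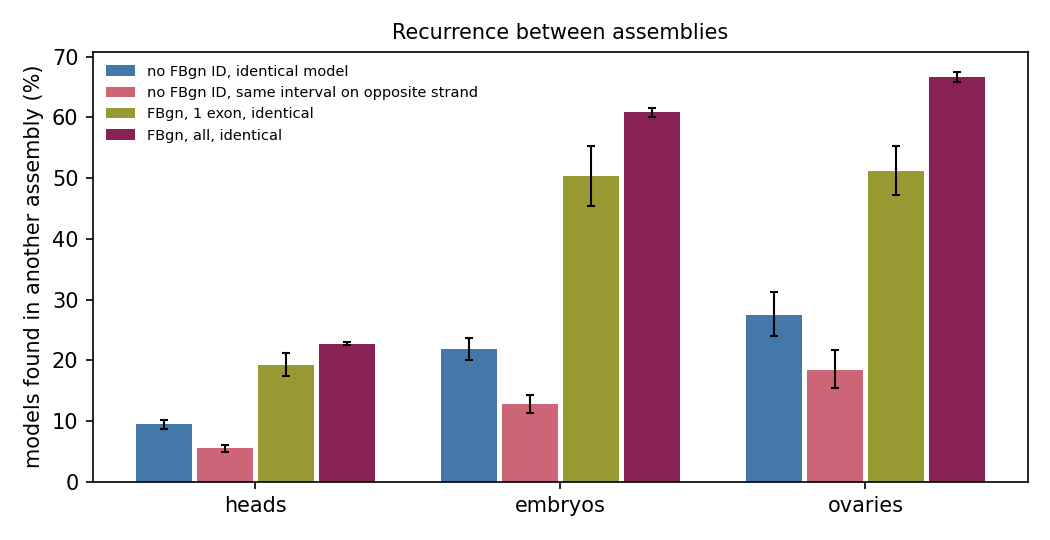
Percent of models found in another assembly, by assembly. Bars are models without an FBgn ID with an identical counterpart, the same models with the same interval labelled on the opposite strand, and FBgn models of 1 exon or of any exon number with an identical counterpart, with 95% Wilson intervals. Models without an ID recurred at 27.4% in ovaries against 66.7% of FBgn models.

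Host genes recurred more often than models. Of 1675 hosts in embryos 1307 were hosts in heads (78.0%), as were 422 of 530 hosts in ovaries (79.6%), and 259 genes were hosts in all 3 assemblies. Overlapping models formed 5179 loci over the 3 assemblies, 117 of them with a model in each, and the largest of these lay on *Bacc* and on *Su(Tpl)* with *Mi-2* (11 models each), *Svil*, *pum* and *lncRNA:CR42549* (10 each), and *par-1*, *Pdp1*, *dnc*, *Tlk* and *Sxl* (9 each). In heads 28 models were identical in both other assemblies. They included models of *brat*, a translational repressor (5355 nt, forward), *Atpalpha*, the sodium pump subunit (3913 nt, forward), and *mtd* (4830 nt, reverse).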

How the data were processed

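The deposited files give the genomic positions of transcript models and their exons, in a unit of 1-based coordinates on dm6, with no count or expression level. The authors merged all libraries of a tissue, aligned the reads, corrected splice sites with short-read junctions and collapsed the reads with FLAIR, keeping reads with a 5′ end at a site of the Eukaryotic Promoter Database. Depth therefore cannot be read from these models, the replicates cannot be separated, and PCR copies are not independent molecules. According to the paper, neural tissue was sequenced to a much greater depth than the other 2 sources. The paper also describes a later filter, which removed transcripts whose 3′ end had no match among poly(A) tail reads from FLAM-seq or direct RNA sequencing. Whether the models used here had passed that filter was not tested.

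The 8305 models were compared with FBgn models of the same file and with Ensembl release 115 in Python 3.11.15 (numpy 2.4.6, scipy 1.17.1, matplotlib 3.10.9). Shares have 95% Wilson intervals. Loci were groups of models overlapping by 1 nt or more on 1 strand. The steps were tested on simulated models. The members and gene lists were chosen with earlier results of these data known. Named were, in each assembly, the 5 loci with the most models, the 3 longest models and up to 4 members of each list, and the 10 largest loci present in all 3 assemblies. Antisense loci with spliced models would have been named too, and there were 0. Other genes (*elav*, *CG46467*, *CycG* and *Bsg* as strand pairs, hosts of spliced models, models identical in all 3 assemblies and the genes of printed sequences) were chosen after their values were seen.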

Additional observations from a re-analysis of the deposited data

How the results depend on the processing

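No paired analysis was possible because the libraries of a tissue were merged before assembly, and for the same reason no library could be left out. Of 60 alternatives, 25 gave a share or median within the interval of the value reported and 35 moved it further. No called result was involved, since nothing was tested. Values are given in the order heads, embryos, ovaries.

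Merging overlapping single-exon models, or counting loci, gave single-exon shares of 93.2% and 93.6% in heads. The antisense share fell to 24.3%, 10.8% and 16.5% where 50% of the exonic length had to overlap. It was 0, 0 and 0 without single-exon models, where the splice sites of the spliced models are annotated on their own strand. It was 31.9% per locus in heads and 30.6% against the annotation in embryos.

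Recurrence was 8.68% with the narrower windows in heads, and 10.6% and 23.8% with the wider ones in heads and embryos. By intron chain alone it was 5.83%, 39.3% and 37.5%, by any same-strand overlap 30.9%, 53.6% and 60.5%, and with strand ignored, chosen after seeing the data, 14.6%, 33.6% and 40.8%.

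The median length without single-exon models was 1116, 3846 and 1527 nt, and 4448 nt with 1 model per intron chain in embryos. The AATAAA share was 16.2%, 8.69% and 12.7% in a 30 nt window, 26.5%, 15.5% and 23.3% with ATTAAA added, and 31.9%, 17.6% and 28.4% with reverse models read on the other strand, also chosen after seeing the data, against 21.5%, 11.9% and 18.1% as labelled. What sets these differences beyond the definitions themselves was not tested.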
